A study of Mus musculus with 6 samples.

Results

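The proteasome genes of mouse astrocytes were compared between brains with grafts of small cell lung cancer (SCLC), a lung carcinoma of neuroendocrine type, and sham-injected brains. They were taken as the protein-coding genes whose symbol starts with Psm, one letter from a to g and a digit, leaving out the interferon-inducible catalytic subunits Psmb8, Psmb9 and Psmb10. The rule found 47 of 35127 genes in the tables: 8 of the alpha ring and 8 of the beta ring of the core, 9 of the base, 8 of the lid, 7 assembly chaperones, 5 activators, 1 inhibitor and Psmc3ip. Psmc3ip, taken by its symbol, is a meiotic recombination factor and not a proteasome subunit.

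RNA-seq of 6 libraries was analysed. Tumour libraries 1 to 3 hold astrocytes taken from brain allografts of SCLC, and sham libraries 1 to 3 hold astrocytes from brains after a sham injection. Strain, age, time after injection, the SCLC line, how the astrocytes were purified and whether animals were pooled were not given in the sources used here. No label says that the libraries of a group came from separate animals, so each p-value reflects the spread among these libraries alone, and that spread may be technical.

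The proteasome degrades proteins that carry ubiquitin chains. Its core is a barrel of stacked rings: alpha subunits form the gated ends, and beta subunits hold the proteolytic sites inside. The regulatory particle on the end of the barrel has a base, whose ATPases unfold the substrate and feed it in, and a lid, which takes off the ubiquitin; dedicated chaperones build these parts, and alternative activators can take the regulatory particle's place. In mammalian cells the transcription factor encoded by Nfe2l1 raises most subunit genes together when proteasome activity is short.

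Totals ran from 22133723 to 25800897 estimated reads per library. Tumour libraries 1 to 3 lay close together, as did sham libraries 1 and 2, with root mean square log2 differences of 0.226 to 0.240 within these pairs. Sham library 3 lay 0.643 and 0.650 from the other sham libraries, farther than the tumour libraries lay from any sham library (0.600 to 0.621). Mitochondrial genes took 4.05% to 4.23% of reads in the tumour libraries, against 6.66%, 6.20% and 4.20% in sham libraries 1 to 3. CPM is the usual count scaled to library size, here after TMM normalisation.

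All 8 astrocyte markers were detected, with summed levels of 2224 to 2318 CPM in tumour and 1956 to 3475 CPM in sham libraries. Aldh1l1 was called higher and Gja1 lower (log2 fold changes 0.48 and -0.94, edgeR adjusted p = 0.0215 and 0.0268). Sham 3 held the lowest astrocyte sum, but the markers were split. Gfap had 398, 396 and 381 CPM in the tumour libraries, against 649, 647 and 343 CPM in the sham libraries. Aldh1l1 alone was highest in sham 3 among the sham libraries (228, 231 and 281 CPM, against 339, 352 and 343 CPM in tumour). Slc1a2 had 316, 325 and 307 CPM in the tumour libraries, against 269, 277 and 118 CPM in the sham libraries, and was not called. The 7 microglial markers summed to 88.5 to 89.0 CPM in tumour and 80.7 to 111 CPM in sham libraries. Nearly all of this was Tmem119 (86.9 ± 0.826 CPM in tumour and 90.3 ± 17.3 CPM in sham, SD, n = 3 each), and the other 6 stayed below 1 CPM throughout. The 5 neuronal markers summed to 6.91 to 8.63 CPM in tumour and 5.04 to 6.78 CPM in sham libraries, with Rbfox3 at 0 in every library. Among them Gad1 was called higher (6.33 ± 0.380 CPM in tumour and 1.94 ± 0.158 CPM in sham, SD, n = 3 each, edgeR adjusted p = 0.00190), while Syt1 had 1.06 ± 0.825 CPM in tumour and 3.28 ± 0.618 CPM in sham and was not called. The 6 endothelial and mural markers summed to 720.3 to 727 CPM in tumour and 665 to 719 CPM in sham libraries. Of these Cldn5 was at 0 in every library, Cdh5 had 575 ± 2.00 CPM in tumour and 559.9 ± 54.4 CPM in sham, and Pdgfrb had 142 ± 5.05 CPM in tumour and 127 ± 26.2 CPM in sham. Kdr was called lower (5.05, 4.89 and 5.06 CPM in the tumour libraries, against 13.4, 13.2 and 9.98 CPM in the sham libraries, edgeR adjusted p = 0.00350). The 6 oligodendrocyte and precursor markers summed to 65.8 to 69.1 CPM in tumour and 54.0 to 110.1 CPM in sham libraries, with 0 of 3 tested called. The 7 neuroendocrine carcinoma markers summed to 24.1 to 25.7 CPM in tumour and 27.8 to 38.3 CPM in sham libraries, with 0 of 5 tested called. Epcam, not tested, had 0.331, 0.329 and 0.237 CPM in the tumour libraries and 0 in every sham library. Chga, also not tested, was at 0 in every tumour library, against 0.176, 0.0416 and 0.136 CPM in the sham libraries. The part of these markers, of the mitochondrial share and of the library groups in the results below was not tested.

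The proteasome genes were mostly lower in the tumour libraries, by modest amounts. Of 46 members tested, 19 fell and 0 rose at an adjusted p below 0.05 (edgeR quasi-likelihood test, Benjamini-Hochberg over all 14359 genes tested). That is 41.3% of the members, while 10.4% of all genes tested were called lower and 10.5% higher. At an unadjusted p below 0.05, edgeR gave 24 members lower (beside 18.7% of all genes) and 0 higher. DESeq2 called 20 lower and 0 higher (beside 12.3% and 12.6% of all genes), and limma-voom called 19 lower and 0 higher (beside 10.2% and 11.4% of all genes). The median log2 fold change of tumour over sham was -0.26 over the members, a 16.3% lower level, beside -0.02 over all genes tested. It was negative for 42 members (91.3%), beside 51.8% of all genes. The others were Psma8, Psme2b, Psmd8 and Psmg4. Without sham 3 it was negative for 34 members: Psma6, Psma7, Psmc1, Psmd2, Psmd3, Psmd4, Psmd11 and Psmg1 then had positive fold changes, the highest 0.04 on the log2 scale. In 26 members every tumour value lay below every sham value, and in 1, Psma8, every tumour value lay above; the same held for 21.9% and 22.2% of all genes. In bulk libraries, fewer cells of a type and less RNA per cell cannot be told apart.

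**Figure D1:**
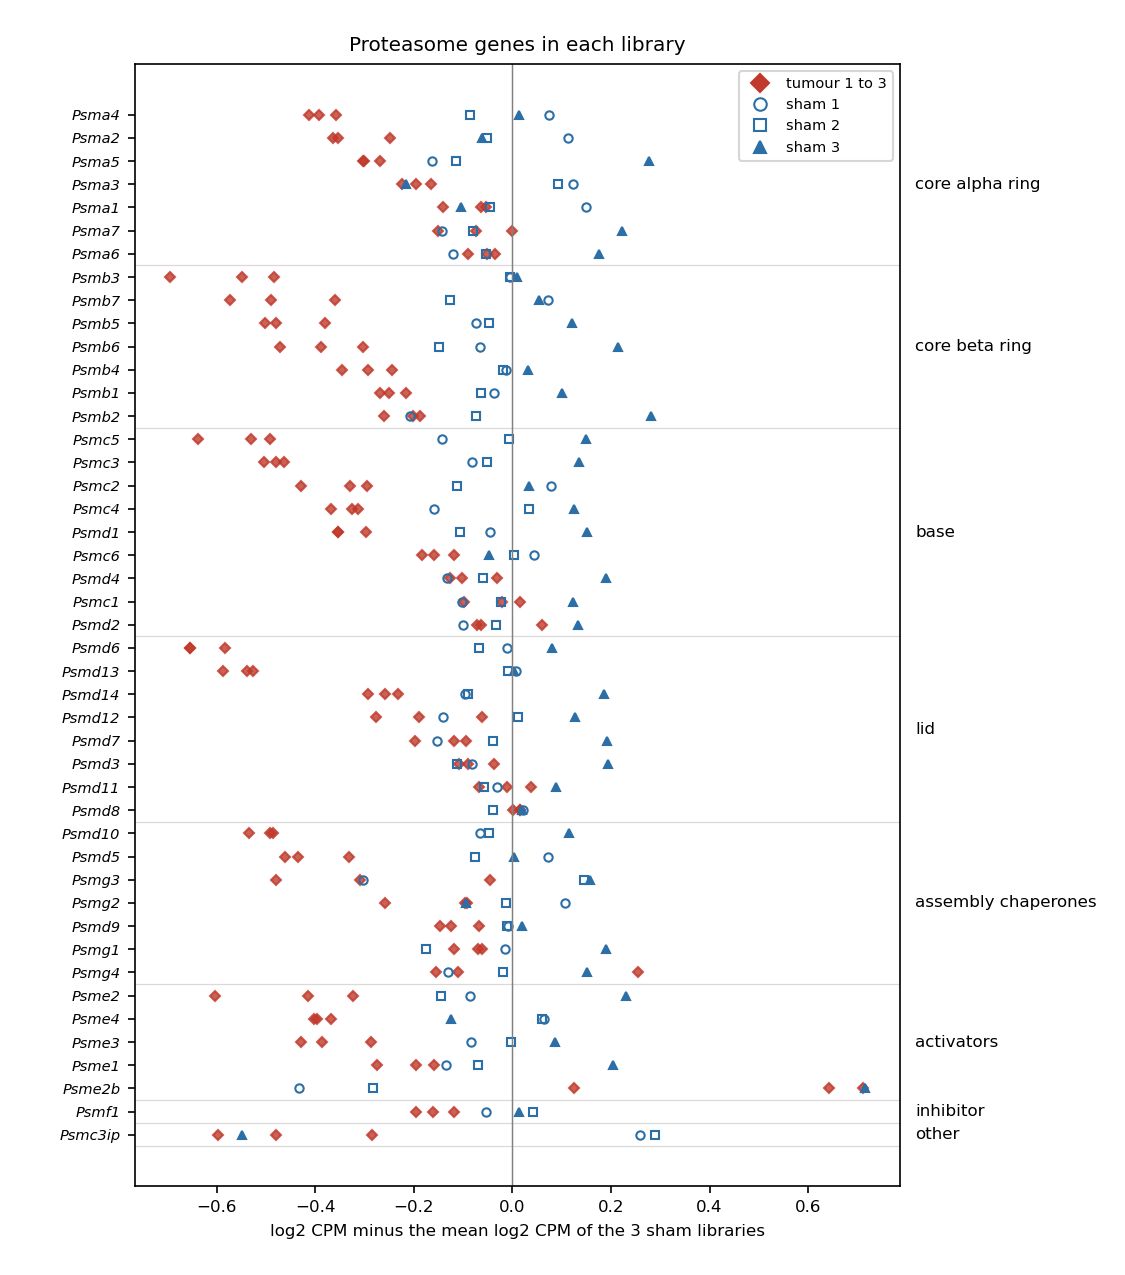
Level of 45 proteasome genes in each library as log2 CPM minus the mean of the 3 sham libraries (horizontal axis), one gene a row, grouped by role. Tumour libraries 1 to 3 are red diamonds, sham 1 and 2 open blue symbols and sham 3 a filled blue triangle; Psma8 and Psmb11, with few reads, are not drawn. In 26 genes the 3 red points lie left of all blue ones, and sham 3 is often the rightmost.

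The number of calls depended on which libraries were included. Measured as tumour mean minus sham on the log2 scale, the members' median was -0.19 against sham libraries 1 and 2 and -0.33 against sham library 3. Sham 3 itself exceeded sham 1 and 2 by a median of 0.18 over the members and 0.00 over all genes. Without sham 3, edgeR called 28 members lower (60.9%, beside 28.6% of all genes) and 2 higher, Psma8 and Psme2b (beside 29.1% of all genes). Without sham 1 or 2 it called 13 and 12 lower (28.3% and 26.1%, beside 5.2% and 4.75% of all genes). Without tumour library 1, 2 or 3 it called 3, 5 and 5 members lower (6.52%, 10.9% and 10.9%, beside 2.44%, 2.64% and 2.6% of all genes). With tumour libraries 1 to 3 summed to 1 sample and sham libraries 1 and 2 to 1, the fit had 1 tumour sample against 2 sham samples. edgeR then called 0 members and 0 of all genes lower, and at an unadjusted p below 0.05 it gave 1 member, Psmd6, and 1.1% of all genes. A design of this size made no call for any gene, so its count says nothing about the members. Psmb3, Psmd6 and Psmd13 were the members called lower in all 6 fits with 1 library left out. The share of all genes called lower in all 6 was not computed, so this count has no background beside it.

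**Figure D2:**
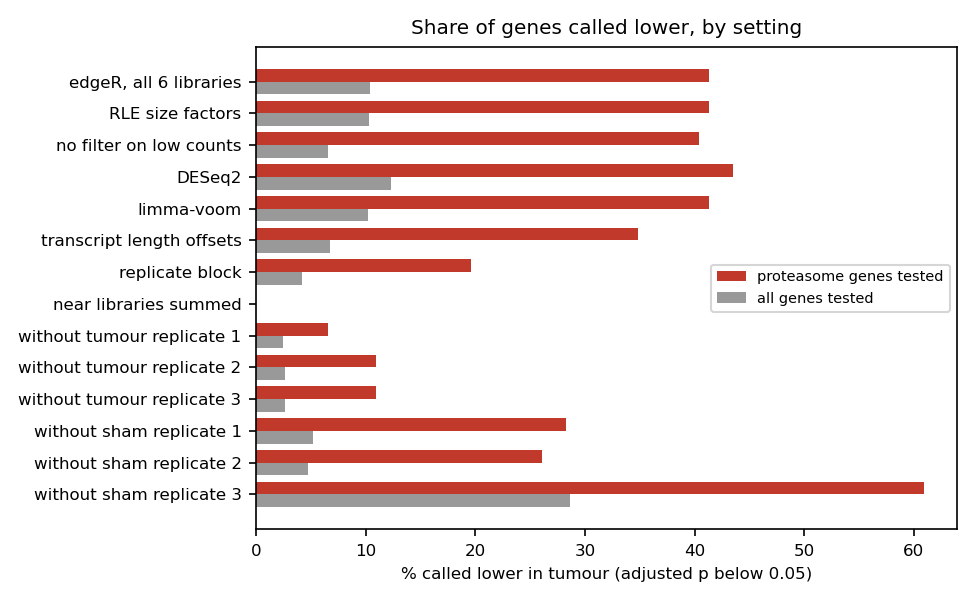
Share of genes called lower in tumour libraries (horizontal axis, percent, adjusted p below 0.05) under each way of processing, with the proteasome genes in red above all genes tested in grey. The red bar is 41.3% with all 6 libraries, 6.52% without tumour replicate 1, and 60.9% without sham replicate 3. The fit with the near libraries summed called no gene at all and is empty for both sets.

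By role, the beta ring had the largest share of members called lower, 5 of 7 tested (71.4%) with a median log2 fold change of -0.39. The activators followed with 3 of 5 (60.0%, median -0.37) and the base with 5 of 9 (55.6%, median -0.34). The assembly chaperones had 2 of 7 (28.6%, median -0.15), the lid 2 of 8 (25.0%, median -0.16) and the alpha ring 2 of 8 (25.0%, median -0.15). Of all genes tested, 10.4% were called lower. The role medians also depended on the sham libraries, as tumour mean minus sham on the log2 scale. Against sham 1 and 2 they were -0.28 (beta ring), -0.32 (activators), -0.26 (base), -0.19 (assembly chaperones), -0.08 (lid) and -0.14 (alpha ring). Against sham 3 they were -0.53, -0.41, -0.38, -0.26, -0.31 and -0.25 in the same order. Differences between these roles were not tested. By position, 10 members lie on chromosome 11, of which 5 fell, and 6 each on chromosomes 2 and 14, of which 3 each fell. Chromosome 12 holds 3 members and chromosomes 16 and 18 hold 2 each, of which 0 fell. The share of all genes called on each chromosome was not computed, so these counts cannot show whether calls depend on position.

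**Figure D3:**
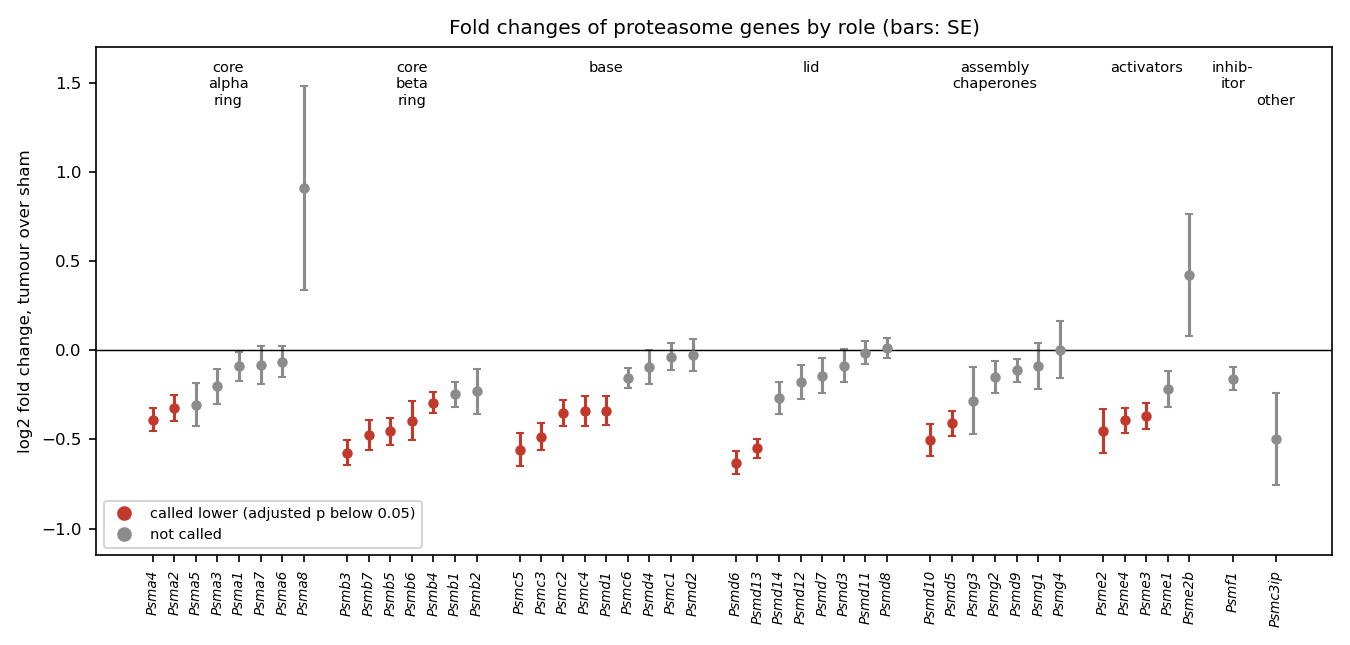
Log2 fold change of tumour over sham (vertical axis) for the 46 tested genes, grouped by role and ordered within each group; bars are the SE restated from the edgeR test. Red points are the 19 genes called lower, and grey points were not called. The lowest is Psmd6 at -0.63, and the 2 points well above 0 are Psma8 and Psme2b, both with wide errors.

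The alpha ring forms the outer gate of the core. Psma4, the alpha subunit whose tail closes the gate in yeast, had 73.7, 76.6 and 74.8 CPM in tumour libraries 1 to 3, against 103, 92.4 and 99.0 CPM in sham libraries 1 to 3. All 3 tumour values were below the sham values, and Psma4 fell by 23.6% (log2 fold change -0.39, SE 0.06, edgeR adjusted p = 0.00919). Psma2 had 80.0, 80.6 and 86.6 CPM in the tumour libraries, against 111, 99.3 and 98.6 CPM in the sham libraries. Its groups did not overlap either, and Psma2 fell (log2 fold change -0.32, SE 0.07, edgeR adjusted p = 0.0259). Psma2 overlaps AW209491 on the same strand, with mean levels of 13.0 CPM in tumour and 15.5 CPM in sham libraries. Psma6, the alpha subunit with the highest mean level per length over all 6 libraries (in the sham libraries alone Psma3 was higher), had 87.4, 85.2 and 88.5 CPM in the tumour libraries, against 83.3, 87.3 and 102 CPM in the sham libraries. The groups overlapped, with sham 3 the highest, and it was not called (log2 fold change -0.06, SE 0.09, edgeR adjusted p = 0.644). Psma5 was lower in all tumour libraries but not called (log2 fold change -0.30, edgeR adjusted p = 0.127). Psma1, Psma3 and Psma7 had fold changes of -0.09, -0.20 and -0.08 on the log2 scale with overlapping groups. Over all libraries, the Psma3 transcript with the most reads was of the nonsense-mediated decay type, with 28.5% to 37.0% of the gene's reads in each library. Psma8, the alpha subunit of the testis, had only 0.911, 0.987 and 0.987 CPM in the tumour libraries, against 0.132, 0.582 and 0.817 CPM in the sham libraries. These levels are very low, and it was not called (log2 fold change 0.91, SE 0.57, edgeR adjusted p = 0.301).

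The beta ring carries the proteolytic sites, which belong to Psmb5 (chymotrypsin-like), Psmb6 (caspase-like) and Psmb7 (trypsin-like). Psmb5 (chr14:54614119-54618022, mm10) had 35.9, 39.1 and 36.5 CPM in the tumour libraries, against 48.3, 49.2 and 55.3 CPM in the sham libraries. The groups were apart, and Psmb5 fell by 27.1% (log2 fold change -0.46, SE 0.08, edgeR adjusted p = 0.0111). Psmb7 had 67.9, 72.0 and 78.8 CPM in the tumour libraries, against 106, 92.6 and 105 CPM in the sham libraries. It fell as well (log2 fold change -0.47, SE 0.09, edgeR adjusted p = 0.0128). Psmb7 overlaps the opposite-strand gene Nek6, at mean levels of 95.1 CPM in tumour and 126 CPM in sham libraries. Psmb6 had 50.8, 57.1 and 53.8 CPM in the tumour libraries, against 67.3, 63.6 and 81.7 CPM in the sham libraries. The tumour values were all lower, with sham 3 the highest, and Psmb6 fell close to the threshold (log2 fold change -0.39, SE 0.11, edgeR adjusted p = 0.0452).

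Psmb3, a structural beta subunit without proteolytic activity (chr11:97703399-97713500, mm10), had 50.02, 57.9 and 55.3 CPM in the tumour libraries, against 80.7, 80.7 and 81.4 CPM in the sham libraries. The sham values, sham 3 included, were nearly equal and all above the tumour values. Psmb3 fell by 32.8% (log2 fold change -0.57, SE 0.07, edgeR adjusted p = 0.00385). Psmb4, another structural beta subunit, had 103, 96.4 and 100.003 CPM in the tumour libraries, against 122, 121 and 125 CPM in the sham libraries. It was lower in each tumour library and fell (log2 fold change -0.29, SE 0.06, edgeR adjusted p = 0.0161). The remaining structural subunits Psmb1 and Psmb2 had fold changes of -0.25 and -0.23 on the log2 scale and were not called (edgeR adjusted p = 0.0527 and 0.245). DESeq2 called Psmb1 lower. Psmb11, the beta subunit of the thymus cortex, had at most 0.04 CPM and was not tested.

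Promoter sequences are shown for Psmb3, Psmb5, Psmb6 and Psmd6, which fell, and for Psmd8, which was not called and lay near a log2 fold change of 0. They are examples for 3 short promoter motifs, and the shares over the members of either kind are given below. The lines give the part upstream of each gene's first exon, 5′ to 3′ on the gene's strand, from RefSeq on GRCm38.p6. Capitals mark matches to TGACNNNGC (the antioxidant response element core, which Nfe2l1 and Nfe2l2 can bind), to the CCAAT box, or to ACGTG (the hypoxia response element core). Both strands were searched, so that GCNNNGTCA, ATTGG and CACGT also counted. The sites are chr11:97703184-97703398 (+) for Psmb3, chr14:54618023-54618245 (-) for Psmb5, chr11:70525107-70525356 (+) for Psmb6, chr14:14120985-14121195 (-) for Psmd6 and chr7:29180702-29180923 (-) for Psmd8.
Psmb3: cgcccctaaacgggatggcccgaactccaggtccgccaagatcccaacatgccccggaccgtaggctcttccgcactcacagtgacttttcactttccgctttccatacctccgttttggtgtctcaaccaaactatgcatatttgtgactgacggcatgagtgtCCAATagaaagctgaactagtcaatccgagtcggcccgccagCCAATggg
Psmb5: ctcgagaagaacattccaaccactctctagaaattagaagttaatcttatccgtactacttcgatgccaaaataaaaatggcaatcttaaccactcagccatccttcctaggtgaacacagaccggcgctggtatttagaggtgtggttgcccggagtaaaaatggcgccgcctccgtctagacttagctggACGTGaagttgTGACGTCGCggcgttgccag
Psmb6: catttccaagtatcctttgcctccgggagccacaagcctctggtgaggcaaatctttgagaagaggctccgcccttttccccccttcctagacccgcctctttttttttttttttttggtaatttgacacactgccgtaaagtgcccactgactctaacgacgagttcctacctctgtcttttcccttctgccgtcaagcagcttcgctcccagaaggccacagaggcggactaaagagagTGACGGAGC
Psmd6: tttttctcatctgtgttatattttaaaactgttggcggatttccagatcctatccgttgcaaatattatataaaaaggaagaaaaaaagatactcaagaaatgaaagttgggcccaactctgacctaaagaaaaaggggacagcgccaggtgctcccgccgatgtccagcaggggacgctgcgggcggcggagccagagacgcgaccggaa
Psmd8: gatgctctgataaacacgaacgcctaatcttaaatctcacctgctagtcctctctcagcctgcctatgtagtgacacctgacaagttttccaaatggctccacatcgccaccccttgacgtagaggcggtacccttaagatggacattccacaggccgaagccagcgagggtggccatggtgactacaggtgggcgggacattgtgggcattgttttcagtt

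Psmb5 held TGACGTCGC starting 47 bases before the annotated start and ACGTG starting at 58 bases, the matches not overlapping. Psmb6 held TGACGGAGC at 9 bases, and Psmb3 held CCAAT at 85 and 43 bases. The Psmd6 and Psmd8 stretches held none of these letters. Windows from 250 bases before to 50 bases after the start were found for 39 members, 17 of them called lower. TGACNNNGC stood in 6 of the 39 (15.4%), beside 12.4% of 32851 promoter windows of that length. These were Psmb5, Psmb6 and Psme4, which fell, and Psmc6, Psmd12 and Psmd9, which were not called. The CCAAT box stood in 35.9% of these members and 37.4% of all windows. ACGTG stood in 17.9% and 19.6%. Among the 17 members called lower, CCAAT stood in 29.4%, ACGTG in 23.5% and TGACNNNGC in 17.6%. Among the 21 members tested and not called, the shares were 38.1%, 14.3% and 14.3% in the same order. Differences between these sets were not tested. A member counted if any of its windows held the letters, while the share over all was per window. A match describes letters, not binding. No match says only that the letters are not in that window.

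The base holds the ATPases Psmc1 to Psmc6 and the scaffold or ubiquitin-binding subunits Psmd1, Psmd2 and Psmd4. Psmc3 had 103, 104 and 101 CPM in the tumour libraries, against 135, 138 and 157 CPM in the sham libraries. The groups did not overlap, and Psmc3 fell (log2 fold change -0.49, SE 0.08, edgeR adjusted p = 0.00814). Its opposite-strand neighbour Slc39a13 overlaps it and was higher in tumour libraries (110.0 CPM in tumour and 80.1 CPM in sham, edgeR adjusted p = 0.0359). Psmc5, another ATPase, had 47.3, 51.0 and 52.4 CPM in the tumour libraries, against 66.7, 73.3 and 81.7 CPM in the sham libraries. Psmc5 fell, with each tumour value below each sham value (log2 fold change -0.56, SE 0.09, edgeR adjusted p = 0.00921). Psmc2 had 57.7, 53.9 and 59.0 CPM in the tumour libraries, against 76.4, 67.0 and 74.2 CPM in the sham libraries. Its groups were apart and it fell (log2 fold change -0.35, SE 0.07, edgeR adjusted p = 0.0208). Psmd1, a scaffold, had 131, 125 and 125 CPM in the tumour libraries, against 155, 149 and 178 CPM in the sham libraries. The tumour values nearly coincided below the sham values, and Psmd1 fell (log2 fold change -0.34, SE 0.08, edgeR adjusted p = 0.0336).

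Psmc4 was the other base ATPase to fall (log2 fold change -0.34, SE 0.08, edgeR adjusted p = 0.0345). Psmd2, the other large scaffold and the base subunit with the highest level per length, had 252, 231 and 229 CPM in the tumour libraries, against 225, 236 and 265 CPM in the sham libraries. Its groups overlapped, and it was not called (log2 fold change -0.03, SE 0.09, edgeR adjusted p = 0.857). Fold changes of -0.04, -0.15 and -0.09 on the log2 scale were measured for Psmc1, Psmc6 and the ubiquitin receptor Psmd4, none of them called.

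The lid held both the lowest fold change of all members and genes with fold changes near 0. Psmd6 (chr14:14112174-14120984, mm10), a structural lid subunit, had 57.2, 54.4 and 54.4 CPM in the tumour libraries, against 84.9, 81.7 and 90.5 CPM in the sham libraries. The tumour values were tightly grouped and well below the sham values, and Psmd6 fell by 35.4% (log2 fold change -0.63, SE 0.06, edgeR adjusted p = 0.00213). Psmd13 (chr7:140881968-140898643, mm10), also structural, had 55.6, 58.0 and 57.5 CPM in the tumour libraries, against 84.0, 83.0 and 83.7 CPM in the sham libraries. Both groups were tight, sham 3 did not stand apart, and Psmd13 fell by 31.7% (log2 fold change -0.55, SE 0.05, edgeR adjusted p = 0.00180). Psmd13 overlaps Sirt3 on the opposite strand, at 20.7 CPM in tumour and 22.1 CPM in sham libraries. Psmd8, the lid subunit with the highest level per length, had 140.2, 140.3 and 139 CPM in the tumour libraries, against 141, 135 and 141 CPM in the sham libraries. The values overlapped throughout (log2 fold change 0.01, SE 0.06, edgeR adjusted p = 0.908). Psmd14, which removes the ubiquitin chain, was lower in every tumour library but not called (log2 fold change -0.27, SE 0.09, edgeR adjusted p = 0.0843). For Psmd3, Psmd7, Psmd11 and Psmd12 the log2 fold changes lay between -0.18 and -0.01, with overlapping groups.

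Levels can be compared between genes only per length, from the deposited TPM summed per gene. The 31 core, base and lid subunits taken by the symbol rule, without Psma8 and Psmb11, summed to 3125, 3096 and 3099.9 TPM in tumour libraries 1 to 3, against 3479.6, 3512 and 3915 TPM in sham libraries 1 to 3. Sem1 and Adrm1, subunits with other symbols, are not in these sums. The tumour sums nearly coincided and lay below all sham sums, at 0.855 of the sham mean. The ratio was 0.841 for the core, 0.866 for the base and 0.886 for the lid, each with groups that did not overlap. Within the tumour libraries the subunits' mean TPM ranged from 43.7 (Psmd12) to 182 (Psmb4), a 4.16-fold span; in the sham libraries it ranged from 48.3 (Psmd12) to 216 (Psmb3), a 4.46-fold span. Core subunits had a median of 132 TPM in tumour and 159 TPM in sham libraries, and base and lid subunits 68.0 and 80.1 TPM. The lowest core gene, Psma2, had 60.1 ± 3.00 TPM in tumour and 73.4 ± 4.08 TPM in sham libraries (SD, n = 3 each).

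**Figure D4:**
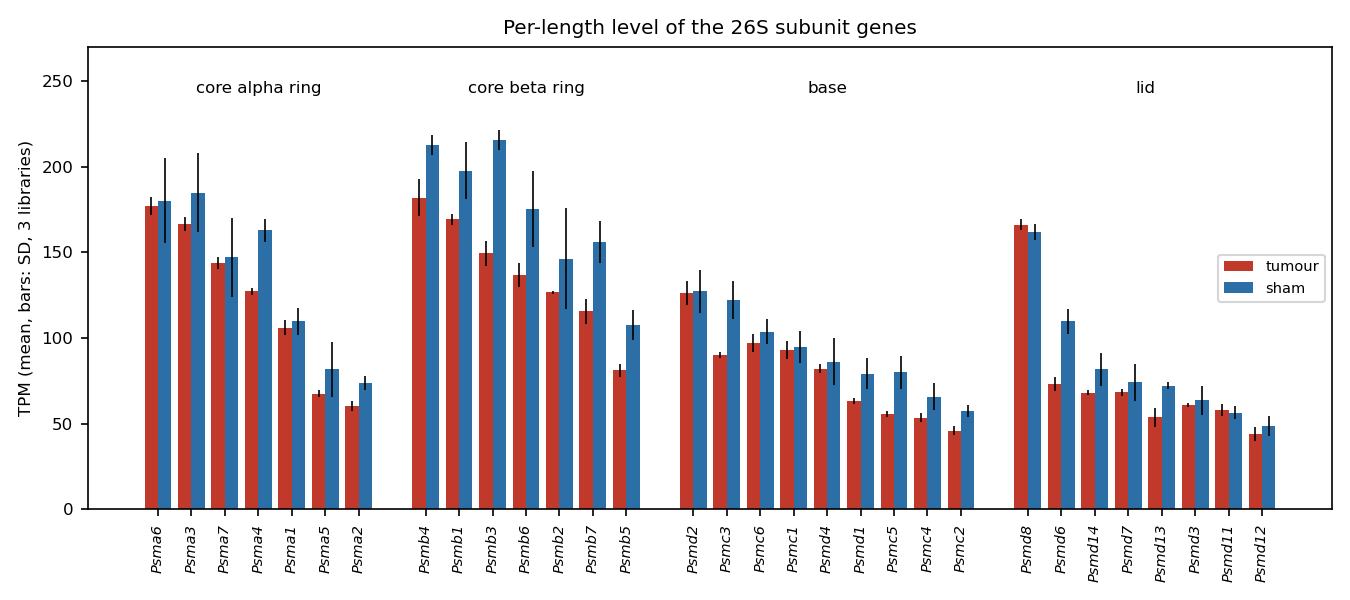
Mean level per length (vertical axis, TPM) of the same 31 core, base and lid genes, ordered within each role, in tumour (red) and sham (blue) libraries; bars show the SD over 3 libraries. Psmb3 stands highest in the sham libraries at 216 TPM and Psmb4 in the tumour libraries at 182 TPM, and Psmd8 is the lid gene that stands far above the rest of its group in both.

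The assembly chaperones help to build the core (Psmg1 to Psmg4) or the base (Psmd5, Psmd9 and Psmd10). Psmd5 had 38.4, 41.3 and 37.8 CPM in the tumour libraries, against 54.6, 49.3 and 52.1 CPM in the sham libraries. All tumour values were lower, and Psmd5 fell (log2 fold change -0.41, SE 0.07, edgeR adjusted p = 0.0111). Psmd10, also known as gankyrin, had 13.6, 13.7 and 13.2 CPM in the tumour libraries, against 18.3, 18.5 and 20.7 CPM in the sham libraries. It fell too, with groups apart (log2 fold change -0.51, SE 0.09, edgeR adjusted p = 0.0122). Psmg2, the chaperone with the highest level per length, had 26.9, 24.0 and 26.8 CPM in the tumour libraries, against 30.9, 28.4 and 26.9 CPM in the sham libraries. Sham 3 lay level with the tumour values, and Psmg2 was not called (log2 fold change -0.15, SE 0.09, edgeR adjusted p = 0.271). The other core chaperones and Psmd9 had log2 fold changes from -0.28 (Psmg3) to 0.00 (Psmg4), none called.

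Of the activators, Psme1 and Psme2 form an interferon-inducible ring that caps the core. Psme1 had 43.7, 47.4 and 46.2 CPM in the tumour libraries, against 48.2, 50.4 and 61.0 CPM in the sham libraries. Its tumour values lay just below those of sham 1 and 2, and it was not called (log2 fold change -0.22, SE 0.10, edgeR adjusted p = 0.177). Psme2 had 37.8, 45.9 and 43.1 CPM in the tumour libraries, against 54.1, 52.0 and 67.3 CPM in the sham libraries. Sham 3 was the highest, all tumour values were the lowest, and Psme2 fell (log2 fold change -0.45, SE 0.12, edgeR adjusted p = 0.0462). Psme2b is a near copy of Psme2, sharing 76.5% of its 31-base stretches with it, so reads of the pair are split by estimate. Psme2b had 7.41, 5.18 and 7.78 CPM in the tumour libraries, against 3.52, 3.91 and 7.80 CPM in the sham libraries. Sham 3 lay level with the highest tumour library, and Psme2b was not called (log2 fold change 0.42, SE 0.34, edgeR adjusted p = 0.424). Summed, the pair had 45.2, 51.1 and 50.9 CPM in the tumour libraries, against 57.6, 55.9 and 75.1 CPM in the sham libraries, without overlap.

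Psme3 encodes the nuclear activator ring, and Psme4 a large single-chain activator. Psme3 had 62.7, 69.2 and 64.5 CPM in the tumour libraries, against 79.6, 84.2 and 89.6 CPM in the sham libraries. Its groups were apart and it fell (log2 fold change -0.37, SE 0.07, edgeR adjusted p = 0.0159). Psme4 had 75.4, 75.2 and 77.0 CPM in the tumour libraries, against 104, 103 and 91.1 CPM in the sham libraries. Sham 3 was here the lowest of the sham libraries, still above the tumour values, and Psme4 fell (log2 fold change -0.39, SE 0.07, edgeR adjusted p = 0.0125). Psmf1, which inhibits the core in the test tube, had 37.1, 36.0 and 35.2 CPM in the tumour libraries, against 38.8, 41.4 and 40.7 CPM in the sham libraries. The values did not overlap, yet Psmf1 was not called (log2 fold change -0.16, SE 0.06, edgeR adjusted p = 0.120). Psmc3ip, the recombination factor, had 3.64, 4.52 and 3.95 CPM in the tumour libraries, against 6.60, 6.73 and 3.77 CPM in the sham libraries, with sham 3 among the tumour values and no call.

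In the immunoproteasome the inducible subunits Psmb9, Psmb10 and Psmb8 take the places of Psmb6, Psmb7 and Psmb5. Psmb8 made up 27.2%, 22.5% and 21.9% of the TPM of the Psmb5 and Psmb8 pair in the tumour libraries, against 17.1%, 15.4% and 17.1% in the sham libraries. The tumour shares were all higher, by 7.33 percentage points on average (exact two-sided permutation test p = 0.1, the smallest that 3 against 3 allows, 0.3 adjusted over 3 pairs). On its own Psmb8 was not called (log2 fold change 0.13, SE 0.11, edgeR adjusted p = 0.421), and Psmb5 fell, as given above. Psmb9 made up 7.25%, 8.38% and 9.41% of its pair with Psmb6 in the tumour libraries, against 6.09%, 7.83% and 5.94% in the sham libraries, with overlap (exact permutation p = 0.2, adjusted 0.3). From estimated counts in place of TPM, its share was 13.8%, 16.3% and 17.0% in the tumour libraries, against 11.7%, 13.7% and 11.5% in the sham libraries, without overlap (exact permutation p = 0.1, adjusted 0.15). Psmb10 made up 26.4%, 27.7% and 23.6% of its pair with Psmb7 in the tumour libraries, against 24.5%, 25.2% and 24.5% in the sham libraries (exact permutation p = 0.4). Psmb10 and Psmb7 were both called lower, with log2 fold changes of -0.43 and -0.47, while Psmb9 was not called (0.03, edgeR adjusted p = 0.913).

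**Figure D5:**
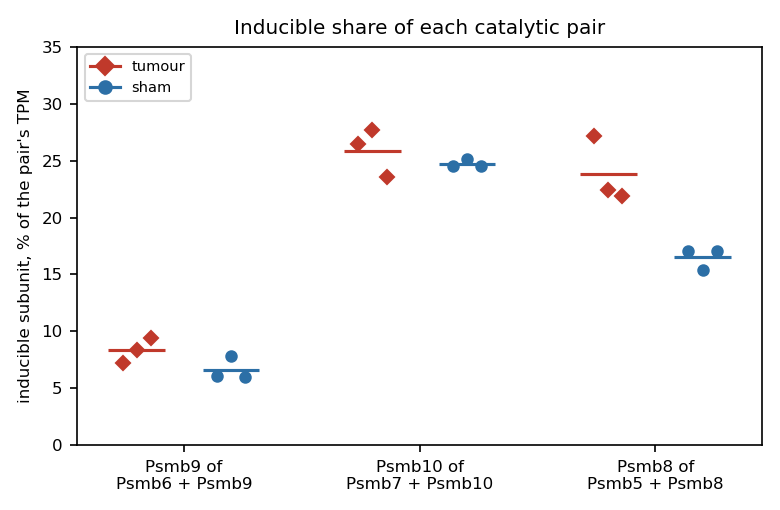
Share of the inducible subunit in the summed TPM of each catalytic pair (vertical axis, percent); points are libraries, tumour red and sham blue, and lines are means. In the Psmb5 and Psmb8 pair the tumour libraries lie between 21.9% and 27.2%, above the sham libraries at 15.4% to 17.1%; in the other pairs the groups overlap on this scale, though for Psmb9 they do not from counts.

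Beyond the Psm genes, 33 of 34 listed partners were tested: ubiquitin genes, shuttle factors, proteasome-bound enzymes and regulators of proteasome production (Paaf1 was not analysed here). Of these 2 rose (6.06%, beside 10.5% of all genes) and 4 fell (12.1%, beside 10.4%), and the median log2 fold change was -0.01. Ddi2, the protease that cuts and so activates the Nfe2l1 protein, had 96.9, 93.4 and 88.9 CPM in the tumour libraries, against 61.5, 66.3 and 71.0 CPM in the sham libraries. All tumour values were higher, and Ddi2 rose (log2 fold change 0.49, SE 0.07, edgeR adjusted p = 0.00745). Akirin2, which carries proteasomes into the nucleus, had 80.1, 66.5 and 69.2 CPM in the tumour libraries, against 52.1, 51.2 and 51.2 CPM in the sham libraries. It rose as well, without overlap (log2 fold change 0.48, SE 0.08, edgeR adjusted p = 0.0109). Both were called in all 6 fits with 1 library left out, but the share of all genes called in all 6 was not computed. Nfe2l1 itself had 557, 563 and 552 CPM in the tumour libraries, against 552, 568 and 583 CPM in the sham libraries, and was not called (log2 fold change -0.03, SE 0.08, edgeR adjusted p = 0.850).

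The 4 partners that fell, a share (12.1%) near that of all genes (10.4%), include 2 subunits and a chaperone whose symbols lie outside the Psm rule. The other listed proteasome-bound genes Uchl5, Usp14 and Ube3c were not called (log2 fold changes -0.07, -0.07 and -0.02). Sem1, a small lid subunit, had 36.4, 43.1 and 41.0 CPM in the tumour libraries, against 51.5, 51.5 and 58.7 CPM in the sham libraries. Adrm1, a ubiquitin receptor of the regulatory particle, had 53.4, 57.3 and 53.4 CPM in the tumour libraries, against 63.9, 64.3 and 64.7 CPM in the sham libraries. Pomp, the chaperone that matures the core, had 53.9, 58.6 and 56.0 CPM in the tumour libraries, against 68.8, 66.5 and 85.2 CPM in the sham libraries. Each had all tumour values below the sham values, with log2 fold changes of -0.42, -0.23 and -0.39 (edgeR adjusted p = 0.0227, 0.0348 and 0.0453). Vcp, the ATPase that pulls ubiquitinated proteins out of complexes, had 253, 258 and 248 CPM in the tumour libraries, against 327, 319 and 345 CPM in the sham libraries. It fell (log2 fold change -0.38, SE 0.07, edgeR adjusted p = 0.0147). None of these 4 calls held in all 6 fits with 1 library left out, which likewise has no share of all genes beside it.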

How the data were processed

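Bulk RNA-seq of 3 tumour and 3 sham libraries was used, grouped by sample title. Per the submitters' processing notes, Salmon 0.8.2, DESeq2 1.28.1 and the mm10 build were used; kit, strand and bias settings were not given in the sources used here. Per the file headers, the deposited tables give each transcript's length and effective length in bases, TPM and estimated count. Of 113116 transcripts, 112841 were matched to GENCODE M21 (GRCm38, the assembly of mm10). For each gene the estimated counts were added up, then rounded. Without strand, reads of overlapping genes cannot be told apart. edgeR 4.0.16 (R 4.3.3) with TMM, filterByExpr (minimum count 10, total 15) and a robust quasi-likelihood fit tested all genes, with Benjamini-Hochberg adjustment at 0.05. Each SE comes from the fold change and its F statistic, so it restates the test. The fit was tested on simulated data with independent libraries and a fixed spread, unlike the near-coinciding libraries here. That check does not vouch for the calls. DESeq2 1.42.0, limma-voom 3.58.1, other scalings, a replicate block, summed and left-out libraries were alternatives. TPM deposited by the authors were summed per gene with Python 3.11.15. Promoters came from RefSeq (GRCm38.p6). Members, lists and named genes (per role, up to 4 called genes with the smallest p and the highest TPM) were chosen with earlier results of these data known.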

Additional observations from a re-analysis of the deposited data

How the results depend on the processing

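The count of members called lower, 19, became 9 with the replicate block (19.6% of the members, beside 4.23% of all genes), 0 with the near libraries summed, and 3 to 28 with 1 library left out; the count called higher, 0, ranged from 0 to 2 (Psma8 and Psme2b, without sham library 3). Partners called higher, 2, became 0 with near libraries summed and 2 to 10 with 1 library left out. Of all genes, 29.1% were called higher without sham library 3. Partners called lower, 4, became 2 with transcript length offsets (beside 6.75% of all genes) and 0 with the replicate block (beside 4.23%). They became 0 with near libraries summed and 0 to 7 with 1 library left out (beside 2.44% to 28.6% of all genes). The summed fit was run with edgeR only, and its lone tumour sample was assumed to vary like the sham samples. It called no gene of any kind, so its counts of 0 say nothing about stability. The median log2 fold change of the members stayed between -0.31 and -0.20 in every alternative.

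Deviations of same-numbered libraries correlated at 0.016, -0.016 and 0.0081, and not every library correlated best with its own number, so the numbers were not taken as pairs. The Psmb9 share in its pair exceeded sham by 1.73 percentage points from TPM and by 3.39 from counts, where the groups no longer overlapped. The median TPM of the 31 subunits, 90.1 in tumour and 107.5 in sham libraries, was 80.0 and 88.7 with protein-coding transcripts only. Depth limits Psma8 and Psmb11, which had few reads. For each of these the cause was not tested.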
